A study of Homo sapiens with 12 samples.

Results

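The mevalonate arm is the run of enzymes that turns acetyl-CoA units into the prenyl diphosphates from which cholesterol and prenyl groups are built. The 8 genes described were listed by symbol, as enzymes of this pathway, with earlier results of these data known: ACAT2, HMGCS1, MVK, PMVK, MVD, IDI1, FDPS and GGPS1, out of 19677 rows in each count table. All 8 were found once in every table, and all 8 passed the filter on low counts. RNA was sequenced from 12 libraries of CAOV3, an established human ovarian carcinoma line labelled as high-grade serous, wild type, grown in medium with fetal bovine serum. Control cells received DMSO, the ascites group received 10% ovarian cancer ascites with DMSO, the bezafibrate group received the drug at 200 uM, and the combination group received both the drug at 200 uM and 10% ascites, with 3 libraries in each group. The 3 treated groups are labelled 16 hours and the controls carry no time. Ovarian tumours often shed ascites, a protein-rich abdominal fluid. Bezafibrate (spelled Bezadibrate in the sample labels) belongs to the fibrates, lipid-lowering drugs that activate PPAR nuclear receptors. DMSO is named only for the groups without the drug, so each comparison of the drug with its absence includes any difference in solvent. The labels do not say whether libraries came from separate cultures or the fluid from more than 1 patient, so p-values measure only the spread between these libraries, which may be technical.

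The pathway starts in the cytosol, where ACAT2 condenses acetyl-CoA to acetoacetyl-CoA and HMGCS1 adds a further unit to make HMG-CoA. Once HMG-CoA has been reduced to mevalonate, the kinases MVK and PMVK and the decarboxylase MVD convert it to isopentenyl diphosphate. IDI1 isomerises this unit, FDPS joins units into farnesyl diphosphate, and GGPS1 extends the chain to geranylgeranyl diphosphate. Farnesyl diphosphate feeds squalene and cholesterol, and both longer products are attached to small GTPases and other proteins. Most genes of the pathway are known targets of SREBP-2 (SREBF2), a transcription factor that is released from the endoplasmic reticulum when sterols are low and that often works beside NF-Y, a factor that binds CCAAT boxes.

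The promoters of the 4 members that passed the test in at least 1 comparison are shown, because members that share a pathway and a known regulator did not move alike. Each is 1 stretch of 250 bases before a RefSeq transcript start (GRCh38.p14), 5′ to 3′ on the strand of the gene, with CCAAT boxes of either orientation (CCAAT or ATTGG) in capitals. They lie at chr5:43313413-43313662 on the minus strand for HMGCS1, chr10:1049120-1049369 on the minus strand for IDI1, chr16:88663092-88663341 on the minus strand for MVD, and chr12:109573544-109573793 on the plus strand for MVK.
HMGCS1: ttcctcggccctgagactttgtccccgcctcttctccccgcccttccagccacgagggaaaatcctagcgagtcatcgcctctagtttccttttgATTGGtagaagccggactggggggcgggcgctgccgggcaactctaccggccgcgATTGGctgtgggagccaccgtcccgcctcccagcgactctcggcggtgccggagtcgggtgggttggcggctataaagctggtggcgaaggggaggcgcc
IDI1: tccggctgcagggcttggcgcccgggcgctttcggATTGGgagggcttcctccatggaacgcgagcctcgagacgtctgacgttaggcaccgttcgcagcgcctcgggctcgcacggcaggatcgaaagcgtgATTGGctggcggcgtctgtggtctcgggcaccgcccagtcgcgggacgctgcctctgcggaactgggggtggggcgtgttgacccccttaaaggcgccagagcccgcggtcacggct
MVD: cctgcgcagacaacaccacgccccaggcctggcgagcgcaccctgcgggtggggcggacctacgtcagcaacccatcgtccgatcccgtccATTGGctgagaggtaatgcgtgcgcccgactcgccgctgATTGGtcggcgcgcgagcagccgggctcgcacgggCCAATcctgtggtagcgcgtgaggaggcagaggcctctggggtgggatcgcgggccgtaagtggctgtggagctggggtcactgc
MVK: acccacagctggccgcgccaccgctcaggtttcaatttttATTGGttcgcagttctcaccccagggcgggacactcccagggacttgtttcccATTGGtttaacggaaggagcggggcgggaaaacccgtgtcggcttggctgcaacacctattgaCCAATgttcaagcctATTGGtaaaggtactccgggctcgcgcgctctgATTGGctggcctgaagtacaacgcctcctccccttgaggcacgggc
The windows shown held 2 CCAAT boxes for HMGCS1, 2 for IDI1, 3 for MVD and 5 for MVK. HMGCS1 has 2 RefSeq windows and IDI1 has 3, and the window shown for each was picked by hand and not by a rule. The other HMGCS1 window held 0 CCAAT boxes, and the other IDI1 windows held 0 and 3. RefSeq promoter windows were matched for 7 of the 8 members, HMGCS1, MVK, PMVK, MVD, IDI1, FDPS and GGPS1. A CCAAT box was found in at least 1 window of 6 of these 7 genes and of 37.0% of the 27305 genes with a window. The GC box GGGCGG was found in all 7, against 46.2% of genes. The sterol response element core TCACNCCAC was found in 0 of 7, against 1.09% of genes. With 1 base freed (TCACNCNAC) only FDPS matched, as TCACACGAC starting 140 bases before the start, against 2.48% of genes. The DR1 element that PPARs bind, a pair of AGGTCA half-sites 1 base apart, was found in 0 of 7, against 0.022% of genes. Both strands were searched, and a match describes letters in the window and not binding. The shares are per gene, and HMGCS1, IDI1 and GGPS1 have more than 1 window and so more places to match. The members were not compared with other genes window by window. The exact sterol response element and DR1 letters are rare over all genes, and only 250 bases were searched. Finding 0 of 7 therefore does not show that the members lack such sites.

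In GENCODE 29 (GRCh38, the build named in the submitters' processing notes) the members lie on 6 chromosomes. ACAT2 (ENSG00000120437.9 in the tables) is at chr6:159760328-159779055 on the plus strand. Its exons share 397 bases with TCP1, 1141 bases with SOD2 and 1458 bases with the noncoding gene SOD2-OT1, all on the opposite strand. HMGCS1 (ENSG00000112972.15) is at chr5:43289395-43313512, minus strand. MVK (ENSG00000110921.14) is at chr12:109573255-109598117, plus strand, and shares 306 exonic bases with MMAB on the opposite strand. PMVK (ENSG00000163344.6) is at chr1:154924734-154936991, minus strand, and MVD (ENSG00000167508.12) is at chr16:88651935-88663161, minus strand. IDI1 (ENSG00000067064.12) is at chr10:1039152-1049170, minus strand, FDPS (ENSG00000160752.15) at chr1:155308748-155320666, plus strand, and GGPS1 (ENSG00000152904.11) at chr1:235327350-235344532, plus strand. The exons of HMGCS1 share 703 bases with the antisense gene AC114947.2, those of IDI1 share 643 bases with IDI2-AS1, and those of FDPS share 693 bases with RUSC1-AS1, all on the opposite strand. GGPS1 shares 1422 exonic bases with TBCE on the same strand and 138 with ARID4B on the opposite strand, and FDPS has 8 named pseudogenes. Whether the counting used strand is not given in the sources used here, so the values of ACAT2, HMGCS1, MVK, IDI1, FDPS and GGPS1 are uncertain to the extent that reads were shared. PMVK and MVD had no such overlap.

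Total counts per library ranged from 11831093 to 18762759, and the 8 members had between 134 counts (MVK) and 6354 counts (HMGCS1) in a library. Combination replicate 3 lay at -22.4 on the second principal component of log2 CPM, which held 9.88% of the variance, while the other 11 libraries lay between -4.37 and 9.84. All CPM values are counts scaled to a common library size by TMM, and they do not adjust for gene length, so levels are compared within a gene only. The epithelial markers EPCAM, KRT7, KRT8 and KRT18 were expressed, at 27.6 CPM for EPCAM and 3005 CPM for KRT8 in control cells. Of the lineage markers of serous carcinoma, PAX8 (0.378 CPM in control), WT1 (0.124 CPM), MUC16 (0.0983 CPM), FOLR1 (0.249 CPM) and MSLN (0.621 CPM) were near 0, WFDC2 had 0 counts in control, and SOX17 had 0 counts in every library. Of 16 blood cell and platelet markers, 9 had 0 counts in all libraries, PTPRC, CD3E and TYROBP among them. Their summed level was 75.6 to 78.5 CPM in control, 76.3 to 85.6 CPM with ascites, 92.9 to 97.5 CPM with bezafibrate and 94.8 to 102.8 CPM with both, of which CD68 alone made 72.5 CPM on average in control and 91.0 CPM with bezafibrate. The 10 fibroblast and mesothelial markers summed to 232.8 to 245.3 CPM in control, 230.3 to 236.9 CPM with ascites, 188.3 to 200.7 CPM with bezafibrate and 186.6 to 200.8 CPM with both. LUM made 183.9 CPM of this on average in control and 164.0 CPM with bezafibrate, and PDGFRA 43.2 and 21.6 CPM. In control COL1A2, DCN, PDGFRB, LRRN4 and UPK3B each averaged at most 0.325 CPM. UPK3B averaged 0.168 CPM in control and 0.450 CPM with bezafibrate, at 0 to 5 and 4 to 11 counts a library. These libraries overlapped, and UPK3B did not pass the filter on low counts. Of these marker lists, 0 genes were called with ascites, and with the drug 1 of the 5 blood markers tested (CD68) and 2 of the 5 serous markers tested (KRT7 and PAX8) were called higher, and 4 of the 5 fibroblast and mesothelial markers tested were called lower, where 10.1% of all genes were called higher and 7.55% lower with the drug. The part of these shifts in the drug results was not tested.

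**Figure D1:**
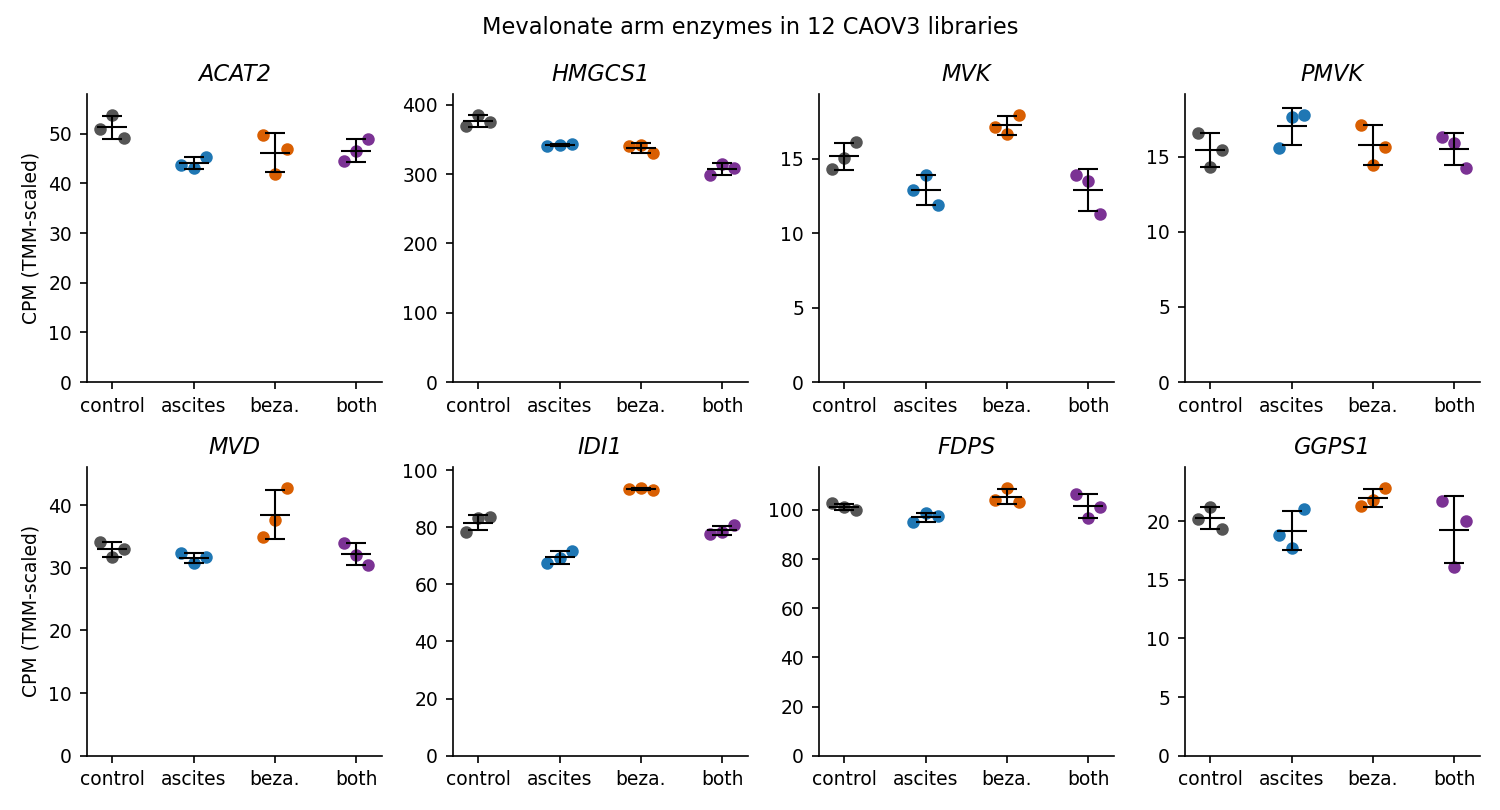
CPM of each enzyme in the 12 libraries. Points are libraries, the long tick is the mean and the whiskers are the SD over 3 libraries of the control, ascites, bezafibrate (beza.) and combination (both) groups, with each vertical axis starting at 0. HMGCS1 is highest in control and lowest with both treatments, while IDI1 is highest with bezafibrate and lowest with ascites.

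At the entry of the pathway, HMGCS1, the cytosolic HMG-CoA synthase, was lowered by the drug in both backgrounds. Its level was 369, 385 and 375 CPM in the control libraries, 341, 342 and 344 CPM with ascites, 341, 342 and 330.0 CPM with bezafibrate, and 298, 315 and 309 CPM with both. Each treated group lay below every control library, the 2 single treatments overlapped each other, and the combination lay below all other groups. Bezafibrate lowered HMGCS1 without ascites (log2 fold change -0.16, SE 0.030, edgeR adjusted p 0.000121), a change of -10.3%. With ascites present the drug changed it by -10.4% (log2 fold change -0.16, SE 0.031, edgeR adjusted p 0.000153). Both calls held in all 19 alternatives run. The log2 fold change for ascites was -0.14 without the drug (SE 0.030, edgeR adjusted p 0.0654, not called) and -0.14 with it (SE 0.030, edgeR adjusted p 0.0471, called). The second call was lost in 13 of 19 alternatives: the replicate block, the fit of these groups alone, and the fits without any 1 library other than combination replicate 3, with adjusted p up to 0.483 in edgeR. Averaged over both drug states, which uses all 12 libraries, ascites lowered HMGCS1 (log2 fold change -0.14, SE 0.021, edgeR adjusted p 0.00031).

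HMGCS1 ended lowest with both treatments, at -18.5% against control (log2 fold change -0.29, SE 0.031, edgeR adjusted p 7.89e-10). The 2 single changes summed to -0.29, and the interaction was -0.0012 with a 95% interval from -0.09 to 0.09.

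ACAT2, the first enzyme of the arm, had its lowest mean with ascites alone, and was not called in any comparison. Its level was 50.9, 53.8 and 49.2 CPM in control, 43.8, 43.1 and 45.4 CPM with ascites, 49.7, 41.9 and 46.9 CPM with bezafibrate, and 44.4, 46.4 and 49.0 CPM with both. The ascites libraries lay below every control, the bezafibrate libraries overlapped the controls, and the combination lay below them. The log2 fold change was -0.22 for ascites (SE 0.061, edgeR adjusted p 0.364) and -0.16 for bezafibrate (SE 0.059, edgeR adjusted p 0.0625), and neither was called. The drug value passed the threshold in 5 of 19 alternatives, among them the fit without bezafibrate replicate 1 and the fit without combination replicate 3. Without combination replicate 3, ACAT2 was also called in the combination against control. The single changes summed to -0.37 and the combination differed from control by -0.14. The interaction of 0.23 had an unadjusted p of 0.0105 in the edgeR fit and an adjusted p of 0.999. TCP1, which overlaps ACAT2 and had a mean of 8292 counts against 676 for ACAT2, stood at 0.01 with ascites and 0.04 with bezafibrate on the log2 scale and was called in neither. SOD2, which also overlaps ACAT2, had a mean of 2197 counts and the same rounded values, and was called in neither.

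Of the steps from mevalonate to isopentenyl diphosphate, the first kinase, MVK, differed most with ascites. MVK was at 14.3, 15.1 and 16.1 CPM in control, 12.9, 13.9 and 11.9 CPM with ascites, 17.1, 16.7 and 17.9 CPM with bezafibrate, and 13.9, 13.5 and 11.3 CPM with both. The bezafibrate libraries were the 3 highest of the 12, and both groups with ascites lay below both groups without it. Averaged over both drug states, ascites lowered MVK (log2 fold change -0.32, SE 0.067, edgeR adjusted p 0.0147), a change of -19.9%. That call was lost without control replicate 3, without ascites replicate 1 and without ascites replicate 3, with edgeR adjusted p up to 0.091. The separate log2 fold changes were -0.23 without the drug (SE 0.096, edgeR adjusted p 0.761) and -0.41 with it (SE 0.092, edgeR adjusted p 0.0579), neither called. The drug gave 0.19 without ascites (edgeR adjusted p 0.166) and 0.01 with it (edgeR adjusted p 0.954). MMAB, a cobalamin enzyme that overlaps MVK, stood at -0.22 with ascites (edgeR adjusted p 0.727) and rose by 0.24 for the drug in ascites (edgeR adjusted p 0.0446).

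PMVK, the second kinase, was not called in any of the 8 comparisons. Its level was 16.6, 14.3 and 15.5 CPM in control, 15.6, 17.6 and 17.8 CPM with ascites, 17.1, 14.5 and 15.7 CPM with bezafibrate, and 16.3, 15.9 and 14.3 CPM with both, and all 4 groups overlapped. It was the 1 member with a higher mean with ascites than in control (log2 fold change 0.14, 95% interval from -0.05 to 0.32).

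MVD, the decarboxylase, was higher with the drug in cells without ascites. It was at 34.2, 31.7 and 32.9 CPM in control, 32.3, 30.8 and 31.8 CPM with ascites, 35.0, 37.7 and 42.7 CPM with bezafibrate, and 34.0, 32.0 and 30.5 CPM with both. The bezafibrate group lay above all other libraries, and its replicates spread more widely than those of the other groups. Bezafibrate raised MVD by 0.22 (SE 0.066, edgeR adjusted p 0.0155), a change of 16.3%. The call was lost with DESeq2, without control replicate 2 and without bezafibrate replicate 3, and the log2 fold change was 0.14 without the latter. Averaged over ascites the drug gave 0.12 (SE 0.048, edgeR adjusted p 0.0484), a call lost in 12 of 18 alternatives. With ascites present the drug gave 0.03 (SE 0.070, edgeR adjusted p 0.83). The difference between these responses, tested as the interaction, was -0.19 (95% interval from -0.38 to 0.01, edgeR adjusted p 0.999) and was not called. For ascites, MVD stood at -0.06 without the drug (edgeR adjusted p 0.966) and -0.25 with it (SE 0.066, edgeR adjusted p 0.285). Averaged over the drug it was -0.15 (edgeR adjusted p 0.31). None of these was called, and the value with the drug was called in 1 of 19 alternatives, the fit without a filter.

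IDI1, the isomerase, was the member that passed the test in both directions: ascites lowered it and the drug raised it. It was at 78.5, 83.1 and 83.4 CPM in control, 67.4, 69.4 and 71.7 CPM with ascites, 93.6, 93.6 and 93.2 CPM with bezafibrate, and 77.5, 78.5 and 80.7 CPM with both. The ascites group lay below and the bezafibrate group above all other libraries, while the combination overlapped the control. Ascites lowered IDI1 without the drug (log2 fold change -0.23, SE 0.045, edgeR adjusted p 0.0225) and with it (log2 fold change -0.25, SE 0.043, edgeR adjusted p 0.00347). The first of these calls was lost without control replicate 2 or 3 and without any 1 ascites library, with edgeR adjusted p from 0.0727 to 0.293. Bezafibrate raised it by 0.20 without ascites (SE 0.043, edgeR adjusted p 0.000683) and by 0.18 with it (SE 0.045, edgeR adjusted p 0.00318), and both drug calls held in all 19 alternatives. Against control the combination stood at -0.05 (95% interval from -0.14 to 0.04), and the interaction was -0.01 (95% interval from -0.14 to 0.11). The ratio of HMGCS1 to IDI1 counts was 4.50 to 4.70 in control and 4.797 to 5.06 with ascites. It was 3.54 to 3.65 with bezafibrate and 3.83 to 4.01 with both, so the 4 groups did not overlap. This ratio divides 2 members already called in opposite directions with the drug, so its separation by the drug restates those calls and adds no support. How many other gene pairs separate the groups was not computed. The ratio of IDI1 to FDPS counts, a later step, was 0.764 to 0.834 in control, 0.704 to 0.736 with ascites, 0.861 to 0.902 with bezafibrate and 0.728 to 0.811 with both. On this ratio the bezafibrate libraries lay above all others, and the combination overlapped both the control and the ascites groups.

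**Figure D2:**
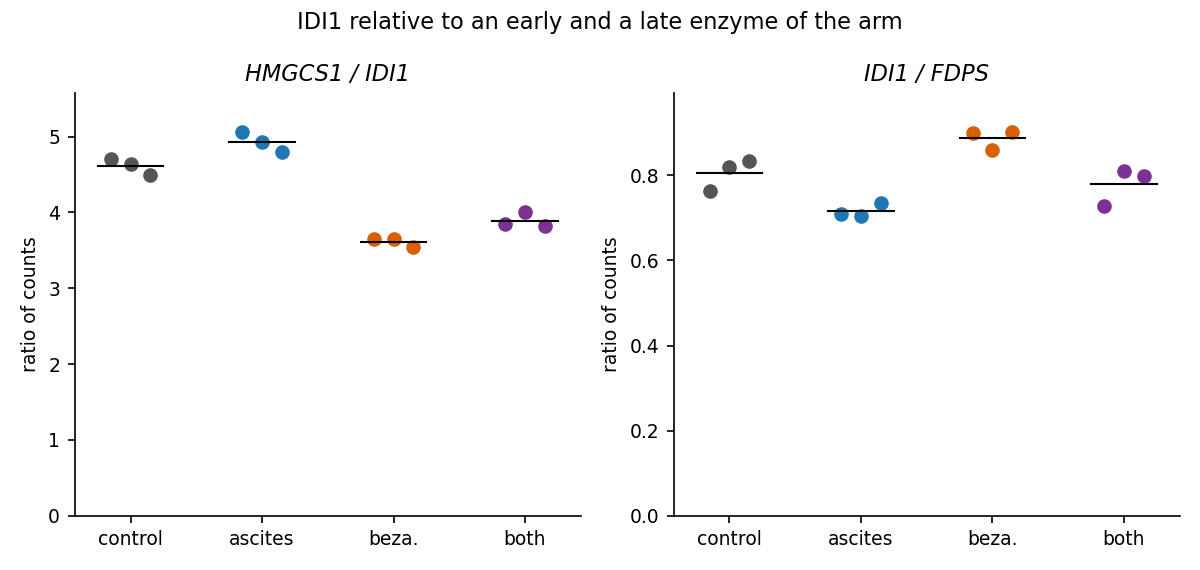
Ratio of HMGCS1 counts to IDI1 counts (left) and of IDI1 counts to FDPS counts (right) in each library, with the group mean as a line and axes from 0. In the left panel all 6 libraries with bezafibrate lie at or below 4.01, under all 6 without it; in the right panel the bezafibrate libraries, at 0.861 to 0.902, are the highest.

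The prenyl diphosphate synthases at the end of the arm were not called in any comparison. FDPS, which makes farnesyl diphosphate and is the target of bisphosphonate drugs, was at 102.7, 101.2 and 100.02 CPM in control, 94.98, 98.6 and 97.4 CPM with ascites, 103.9, 108.8 and 103.3 CPM with bezafibrate, and 106.6, 96.7 and 101.1 CPM with both. The ascites libraries lay just below and the bezafibrate libraries just above the controls, by a log2 fold change of -0.06 (95% interval from -0.15 to 0.02) and of 0.06 (95% interval from -0.03 to 0.14). The combination spanned both. GGPS1 had group means of 20.3 ± 0.94 CPM in control, 19.2 ± 1.67 CPM with ascites, 22.0 ± 0.75 CPM with bezafibrate and 19.3 ± 2.85 CPM with both (SD, n = 3). Its log2 fold changes ran from -0.17 to 0.12 over the 5 pairwise comparisons, and in the combination replicate 2 stood lowest, at 16.1 CPM against 21.7 and 20.01 CPM.

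**Figure D3:**
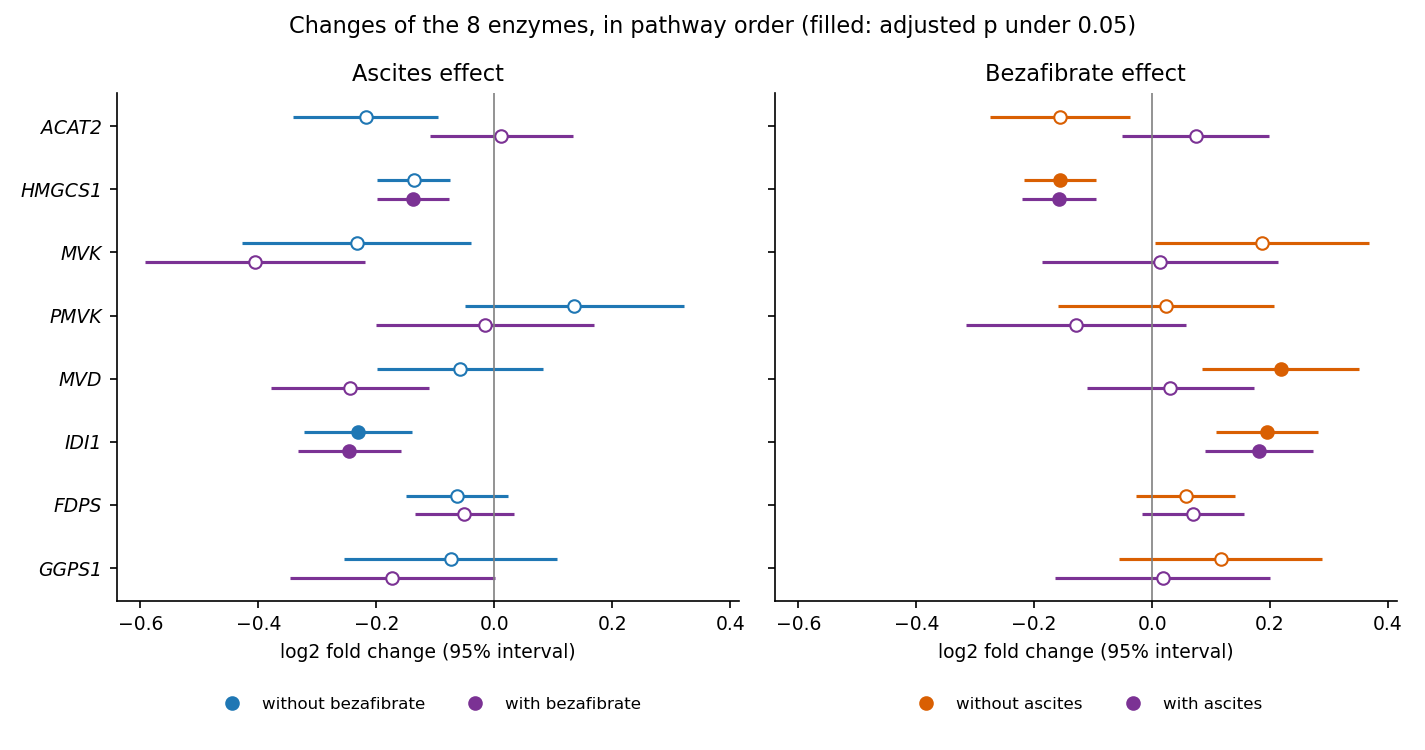
Log2 fold changes of the 8 enzymes in pathway order with 95% intervals (points, edgeR; filled where the adjusted p was under 0.05). The left panel gives the ascites effect without and with bezafibrate, the right panel the drug effect without and with ascites. IDI1 is filled in all 4 comparisons, on the left of 0 with ascites and on the right with the drug; HMGCS1 lies left of 0 throughout.

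Counted over the arm, ascites against control called 1 of 8 members (IDI1, lower), where 0.0882% of the 12470 genes tested were called lower. The ascites group lay wholly below control in 5 of 8 members, against 7.06% of all genes, and wholly above in 0, against 5.64%. The median log2 fold change of the members was -0.11, against -0.0018 over all genes. In drug-treated cells ascites called 2 of 8 lower (HMGCS1 and IDI1), against 0.0882% of all genes called lower, and 0 of 8 higher, against 0.0401% (edgeR; 4 members had an unadjusted p under 0.05, and DESeq2 called 2, both lower). In that comparison 4 of 8 members lay wholly below, against 4.83%, and 0 wholly above, against 4.44%. Averaged over both drug states, ascites called 3 of 8 lower (HMGCS1, MVK and IDI1) and 0 higher, against 0.233% of all genes called lower and 0.0481% called higher (edgeR).

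Bezafibrate against control called 2 of 8 members higher (MVD and IDI1), where 10.1% of all genes were called higher, and 1 of 8 lower (HMGCS1), where 7.55% were, so 3 of 8 in either direction against 17.6%. Its libraries lay wholly above control in 5 of 8 members (17.2% of all genes) and wholly below in 1 (16.3%), and the median of the members was 0.09. With ascites present, the drug called 1 of 8 higher (IDI1, against 10.5% of all genes) and 1 of 8 lower (HMGCS1, against 7.29%), or 2 of 8 in either direction against 17.8%, with 1 member wholly above (16.0% of all genes) and 1 wholly below (14.5%). Averaged over ascites, the drug called 2 of 8 higher (MVD and IDI1, against 15%) and 1 of 8 lower (HMGCS1, against 13.2%), or 3 in either direction against 28.3%. With 8 genes, these drug counts were not read as a result about the arm as a whole. The combination against control called 1 of 8 lower (HMGCS1, against 7.96%) and 0 higher (against 10.3%), or 1 in either direction against 18.2%, and 3 of 8 members lay wholly below (14.6%). The interaction called 0 of 8 members and 0% of all genes with edgeR, 1 member had an unadjusted p under 0.05 there, and DESeq2 also called 0 members. Summed over the 8 members, the level was 694.5 ± 10.1 CPM in control, 633.6 ± 7.15 CPM with ascites, 676.0 ± 3.30 CPM with bezafibrate and 614.0 ± 1.62 CPM with both (SD, n = 3). Without HMGCS1 the sum was 316 to 320 CPM in control, 286 to 297 CPM with ascites, 335 to 342 CPM with bezafibrate and 299 to 314 CPM with both, so the bezafibrate libraries were below the controls with HMGCS1 counted and above them without it.

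The next steps of the pathway, from squalene synthase to cholesterol, were read beside the arm as a list of 12 genes. Bezafibrate against control called 7 of 12 of these higher and 0 lower, against 10.1% and 7.55% of all genes, with a median of 0.125 against -0.0037 over all genes. Squalene synthase (FDFT1), which uses farnesyl diphosphate, rose by 0.54 (SE 0.037, edgeR adjusted p 1.29e-14), MSMO1 by 0.43 and NSDHL by 0.27. With ascites 2 of 12 were called lower, MSMO1 (-0.26) among them, against 0.0882% of all genes, with a median of -0.14 against -0.0018 over all genes. No test of the arm against that list was run. Of the 14 genes that use prenyl diphosphates for prenylation, ubiquinone, dolichol and related products, 0 were called with ascites (edgeR, with 2 at an unadjusted p under 0.05), against 0.0882% of all genes. With bezafibrate 1 was called, lower, against 17.6% of all genes called in either direction, and the medians were 0.03 with ascites and 0.02 with the drug. Of the 4 genes of cytosolic acetyl-CoA supply and use, ascites lowered ACACA (-0.18), and bezafibrate raised ACSS2 by 0.34 and SLC25A1, the citrate carrier, by 0.28. Of the 10 genes of sterol sensing and uptake, ascites against control called 1 lower, INSIG1 (-0.40), against 0.0882% of all genes. Bezafibrate against control called 2 higher, INSIG1 (0.43) and SREBF2 (0.16), against 10.1% of all genes, and 0 lower, against 7.55%. With ascites present the drug called 2 of 10 higher and 1 lower, against 10.5% and 7.29%, and the lowest log2 fold change was -0.19. SREBF1 had a mean of 137.3 CPM with ascites and 119.9 CPM with both. ACAT1, the mitochondrial counterpart of ACAT2, was at 117.1 CPM in control and stood at -0.01 with bezafibrate (edgeR adjusted p 0.865).

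**Figure D4:**
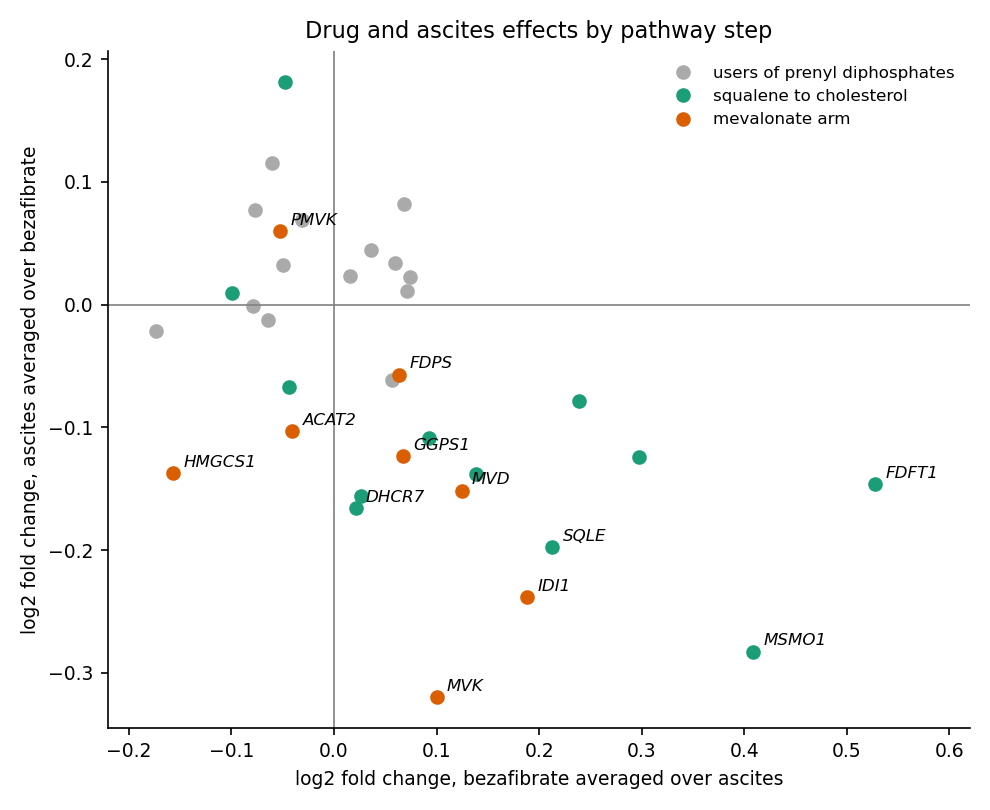
Drug effect averaged over ascites (horizontal, log2 fold change) against ascites effect averaged over the drug (vertical, log2 fold change) for the mevalonate arm, the squalene to cholesterol steps and the users of prenyl diphosphates; each point is 1 gene. Both axes use the same 12 libraries. HMGCS1 lies at -0.16 and -0.14, IDI1 at 0.19 and -0.24, and FDFT1 at 0.53 and -0.15.

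The members did not vary as 1 unit. Over the 28 pairs, Pearson's r of log2 CPM across the 12 libraries ranged from -0.39 to 0.76 with a median of 0.13, and the median r of deviations from the group means was -0.06. Every pair among MVK, MVD, IDI1, FDPS and GGPS1 had a positive r across the libraries, from 0.41 to 0.76. For these same pairs the r of deviations from the group means ran from -0.42 to 0.61. Pairs that include ACAT2, HMGCS1 or PMVK ran from -0.39 to 0.48 across the libraries. This split was made after the values were seen, and no r for pairs of other genes is given for comparison. All these values are descriptions, since all pairs share the same libraries and depth. Deviations within groups also hold counting noise, so a median near 0 there does not show that the members vary independently. Likeness was read over 10400 other genes whose mean CPM reached 5. The 5 most like the mean standardised pattern of the members over the 12 libraries were DHCR7, the last enzyme of cholesterol synthesis (r = 0.93), TFRC, the transferrin receptor (r = 0.89), ZNF585A (r = 0.86), BCL7B (r = 0.84) and THRA (r = 0.84). For HMGCS1 alone they were PPP1R8, MDC1 and CAD (r from 0.93 to 0.94). For ACAT2 they were IWS1, ZNF609 and TDRD3 (r = 0.88 for each). For MVK they were DHCR7, RFX3 and TNKS (r from 0.84 to 0.86), and for PMVK they were ARMC6, TBCD and PPP1R35 (r from 0.84 to 0.85). For FDPS they were TM9SF4, PYM1 and SIAH1 (r from 0.89 to 0.90), and for GGPS1 they were SETDB1, MBIP and TSPAN5 (r from 0.85 to 0.89). The genes most like MVD were SREBF2 (r = 0.96), BCL7B and ZNF292 (r = 0.88 for each), which were named after their values were seen. Bezafibrate replicate 3 was the highest library for both MVD (42.7 CPM) and SREBF2 (131.6 CPM, against 113.6 and 117.6 CPM in the other bezafibrate libraries). The likeness without that library was not computed. All genes named for likeness had the highest of 10400 r values over 12 libraries. How high the top r would be by chance was not computed, so these names do not show shared regulation.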

How the data were processed

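Whole-number counts per gene were used as the authors deposited them, 1 table per library and 19677 rows per table. Per the submitters' processing notes the build was GRCh38 and Trimmomatic 0.39, STAR 2.7.9a, RSEM 1.3.3 and DESeq2 1.28.1 were used, with no role stated. The annotation release and strandedness are not given in the sources used here. The 4 groups of 3 and the replicate numbers came from the labels. Replicates of a group differed by more than sampling noise (chi-square per degree of freedom 1.44 to 4.45).

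filterByExpr in edgeR 4.0.16 (minimum count 10, total 15) kept 12470 genes and removed 7207. All 12 libraries entered 1 TMM-scaled fit with 1 mean per group, 8 residual degrees of freedom and a common biological coefficient of variation of 3.06%. Contrasts were tested with glmQLFit (robust) and glmQLFTest in R 4.3.3, and calls required p below 0.05 after Benjamini-Hochberg adjustment across the 12470 genes. Standard errors were derived from the log2 fold change and F, and 95% intervals use the moderated degrees of freedom, unadjusted. Log2 CPM used a prior count of 2. The code was run on counts simulated for bezafibrate against control with the same dispersion in every gene, unlike these data. That run checks the code and not the member calls at the sizes reported. Alternatives were RLE and upper-quartile scaling, DESeq2 1.42.0, no filter, a filter of 1 CPM in 6 libraries, a replicate block, fits of only the 2 groups compared, and leaving out each library. The members and lists were chosen with earlier results of these data known. All members were named, from each list at most the 4 called genes with the largest change, and the genes most like the members by Pearson's r. Motifs were searched in RefSeq windows of 250 bases before each start. Some genes that this rule names are not reported here.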

Additional observations from a re-analysis of the deposited data

How the results depend on the processing

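Of the 15 member results called, 10 kept their call and sign under every alternative run, and 0 changed sign. Calls were lost 30 times without 1 library and 6 times elsewhere, and gained 7 and 9 times.

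With ascites against control, 2 members (HMGCS1 and IDI1) were called under upper-quartile scaling, with DESeq2, without a filter and when only these groups were fitted, against 1 in the reported fit; without 1 library the count ran from 0 to 2. In the combination against bezafibrate, 4 members were called without a filter, 1 with the replicate block and 1 when only these groups were fitted, against 2; without 1 library it ran from 1 to 2. In the combination against control it ran from 1 to 2, with 2 without combination replicate 3. For MVK, PMVK and GGPS1 in ascites averaged over the drug, DESeq2 gave no adjusted p. The cause of these moves was not tested. Over the whole table, with ascites against control 59 genes were called if no filter was applied and 33 when only these groups were fitted, against 11, and 3 to 24 without 1 library. In the combination against bezafibrate the counts were 52, 7 and 16, and 9 to 28 without 1 library. For ascites averaged over the drug they were 113 without a filter against 35, and 21 to 118 without 1 library. For the interaction they were 36 without a filter, 1 with DESeq2 and 1 with the replicate block, against 0, and 0 to 3 without 1 library.

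For same-numbered libraries of different groups, the correlation of their deviations from the group means ran from -0.135 to 0.06 in 18 pairs. Of 12 libraries, 1 correlated best with its own number. These deviations also hold counting noise, so values near 0 do not show that a number marks no shared day or culture. The labels do not say what a shared number marks, so the replicate block was run only as an alternative. Beyond HMGCS1 in the combination against bezafibrate, the block lost the call of MVD in the averaged drug effect.

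Values that were not called and lie near 0 changed sign. Under upper-quartile scaling MVK stood at -0.0043 and GGPS1 at -0.00043 in the combination against ascites, and PMVK at -0.0103 and FDPS at -0.012 in the combination against control. Without 1 library, PMVK ran from -0.042 to 0.088 for bezafibrate against control, from -0.078 to 0.0501 for the combination against bezafibrate and from -0.043 to 0.065 against control. For the combination against ascites GGPS1 ran from -0.092 to 0.123, MVK from -0.053 to 0.094 and MVD from -0.019 to 0.067. ACAT2 ran from -0.057 to 0.071 for the combination against bezafibrate. Against control, MVD ran from -0.075 to 0.0093, FDPS from -0.033 to 0.041 and GGPS1 from -0.164 to 0.0505. The interaction ran from -0.0195 to 0.0194 for HMGCS1, from -0.038 to 0.014 for IDI1, from -0.0299 to 0.044 for FDPS and from -0.209 to 0.0047 for GGPS1. Depth limits MVK, PMVK and GGPS1 most, with 134 to 406 counts a library and standard errors from 0.085 to 0.099 in the pairwise comparisons.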
